A study of Mus musculus with 6 samples.

Results

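The genes for the 3 Shank proteins (Shank1, Shank2 and Shank3) and for 4 SAPAP proteins (Dlgap1, Dlgap2, Dlgap3 and Dlgap4) were taken by symbol from the Ensembl identifiers of the deposited table. All 7 were found among its 46078 genes, of which 29430 had at least 1 read in some library. RNA sequencing had been performed on the striatum of 3 Shank3 transgenic (TG) and 3 wild-type (WT) mice, all males of the C57BL/6J strain aged 12 weeks, with 1 library per mouse. The TG mice carry an EGFP-Shank3 transgene, which encodes Shank3 fused to a green fluorescent protein, besides their own Shank3 alleles, and the WT mice do not. The counts are per gene, so reads of the transgene and of the endogenous gene cannot be told apart. The comparison asks how far Shank3 was raised, and whether the paralogs and the SAPAP genes differed in mice with more Shank3 mRNA.

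Shank and SAPAP proteins are stacked layers of the scaffold under the membrane of excitatory synapses. PSD-95 family proteins bind the glutamate receptors and the guanylate kinase domain of PSD-95 binds SAPAP. The C-terminus of SAPAP docks into the PDZ domain of Shank, and Shank in turn links to Homer, cortactin and the actin cytoskeleton. In the striatum, Shank3 and SAPAP3 (Dlgap3) are known for their part in the synapses that cortical axons form on medium spiny neurons, and mice without either gene groom excessively.

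The last 30 coding bases of each gene are shown here, because they hold the SAPAP end that binds Shank and because they tell the members apart. Capitals mark the last 15 bases, which are the final 4 codons and the stop codon. The sequences come from the GENCODE M21 transcript with the longest coding sequence of each gene (GRCm38, plus strand), and each lies within 1 coding exon.
Shank1 (chr7:44357308-44357337): cgggctctcaaatttTTCCTGGAGAGGTGA
Shank2 (chr7:144421106-144421135): agggctttgaaacagCTGCTGGACAGATAA
Shank3 (chr15:89558294-89558323): cgtgcgctcaggcagCTGGATGGCAGCTGA
Dlgap1 (chr17:70818205-70818234): tacatccccgaggcgCAGACCCGGCTCTGA
Dlgap2 (chr8:14846679-14846708): tacatccctgaggccCAGACGCGGCTCTGA
Dlgap3 (chr4:127236339-127236368): tacatccccgaggccCAGACCAGGCTGTGA
Dlgap4 (chr2:156762874-156762903): tatgtccccgaggccCAGACCAGGCTCTAA
The 4 Dlgap ends had between 24 and 27 of 30 bases in common in each pair, and their final 4 codons encode the same residues in every pair. The 3 Shank ends shared 15 to 19 of 30 bases, and their final 4 codons encode different residues. Over whole transcripts, no run of 31 bases was shared between any of the 7 genes, so an exact match of that length to 1 member is not a match to another.

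Read counts recovered from the deposited values totalled between 27689589 and 36647626 per library. The 7 genes had between 2638 (Dlgap2, WT replicate 1) and 34836 (Shank3, TG replicate 1) reads per library, which gives a counting error of 0.536% to 1.95% of the value, smaller than the SD between mice reported here. All 9 markers of medium spiny neurons, the main striatal cell type, were detected in every library, with summed normalized read counts of 121107 to 169974 in TG and 146602 to 169556 in WT. TG replicate 1 stood apart in choroid plexus markers, with a summed normalized read count of 15315, against 1875 and 634 in the other TG and 543 to 891 in the WT libraries. All 8 of these markers were higher in the TG mean (median log2 fold change 1.11), 3 with an unadjusted p under 0.05 and 2 without overlap. All 5 microglia markers were lower, 1 with an unadjusted p under 0.05 and 2 without overlap. Their sums were 7073 to 7759 in TG and 7783 to 8049 in WT. For comparison, 4.31% of all genes tested had an unadjusted p under 0.05 (limma) and 10.1% showed no overlap between the groups. No marker of thalamus, oligodendrocytes, astrocytes or endothelial cells had an unadjusted p under 0.05 (limma). In tissue RNA, fewer cells of a type and less RNA per cell cannot be told apart.

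In WT striatum, all 7 genes were well expressed per kb of exon. Dlgap3 was the highest, at 4126 ± 77.8 normalized reads per kb (SD, n = 3), above 98.9% of the 17519 genes with a length. Shank3 followed at 1472 ± 57.8 reads per kb, then Shank1 at 1200 ± 70.4 and Dlgap4 at 1017 ± 41.1. Dlgap1 (586 ± 38.6), Shank2 (551 ± 27.4) and Dlgap2 (505 ± 20.7 reads per kb) were the lowest, and even Dlgap2 lay above 83.1% of genes. The WT ranges of neighbours in this order did not overlap, except for Dlgap1 with Shank2 and Shank2 with Dlgap2. The order in the middle depended on the length used. Dlgap1 has 17.9 kb of annotated exon but a longest transcript of 7.17 kb, and per kb of the longest transcript the order was Dlgap3 (4434), Shank3 (1837), Dlgap4 (1773), Dlgap1 (1462), Shank1 (1284), Dlgap2 (690) and Shank2 (660), with overlapping WT ranges for Shank3 with Dlgap4 and Dlgap2 with Shank2. Dlgap3 was first and Shank3 the second by both lengths.

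**Figure D1:**
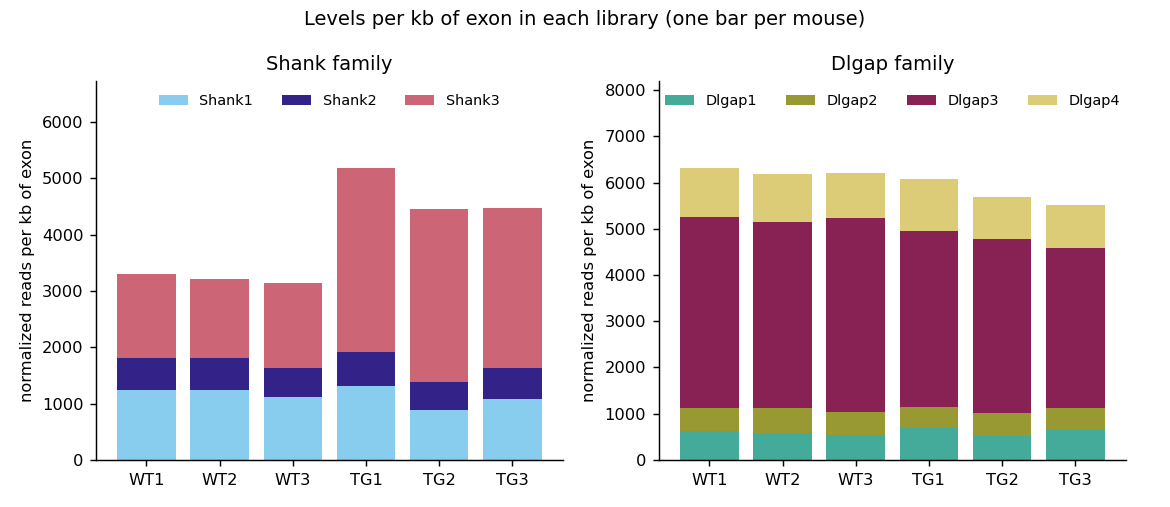
Stacked bars give normalized reads per kb of exon in each library, with 1 bar per mouse, for Shank1 to Shank3 (left) and Dlgap1 to Dlgap4 (right). The Shank3 segment is larger in every TG bar than in any WT bar, and Dlgap3 is the largest Dlgap segment in all 6 libraries.

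Shank3 (ENSMUSG00000022623, chr15:89499623-89560261, plus strand) was roughly doubled. Normalized read counts of Shank3 amounted to 29891, 28308 and 26044 in TG replicates 1, 2 and 3 and 13807, 12918 and 13865 in WT replicates 1, 2 and 3. Every TG library lay above every WT library, at 2.21, 2.09 and 1.92 times the WT mean. The means were 28081 ± 1934 and 13530 ± 531 (SD, n = 3), a ratio of 2.08, and the log2 fold change was 1.05 (SE 0.06, 95% interval 0.92 to 1.18, limma adjusted p = 7.04e-05). It had the smallest p of all genes tested and was the only one called at an adjusted p of 0.05 (limma), so that 0.00568% of the 17605 genes and 1 of the 7 members were called. Over the other normalizations, filters, tests and left-out libraries the log2 fold change ranged from 0.82 to 1.14, and the adjusted p from 1.01e-92 to 0.00309.

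Gm15609, a noncoding gene on the opposite strand inside Shank3, shares 271 bases of exon with it. It had 111, 149 and 128 normalized reads in the TG libraries and 41.2, 31.8 and 56.9 in the WT libraries, in the order of the replicates. It was higher in 3 of 3 TG libraries (log2 fold change 1.58, limma adjusted p = 0.0824). The library kit does not mark strand, so reads of Gm15609 and of Shank3 in the shared bases cannot be told apart. Of the other genes of the table that share exon bases with a member and were tested, 1700008O03Rik in the 3' part of Shank1 (339 bases) had a log2 fold change of -0.12 and 4930405A21Rik in Dlgap4 (24 bases) one of 0.06, and both overlapped between the groups.

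The other Shank genes did not pass the test. Shank1 (ENSMUSG00000038738, chr7:44310253-44360572, plus strand) encodes a large scaffold of the same domain plan, enriched in cortex and hippocampus. It reached 13834, 9392 and 11443 normalized reads in TG and 13080, 13005 and 11763 in WT, replicates 1 to 3. TG replicate 1 was the highest of all 6 libraries and TG replicate 2 the lowest, so the groups overlapped. The means were 11556 ± 2223 and 12616 ± 740 (SD, n = 3), and the log2 fold change was -0.14 (SE 0.11, limma adjusted p = 0.971), with a 95% interval from -23.8% to 7.59%. Single libraries decided this value: it was -0.28 without TG replicate 1 (95% interval -0.46 to -0.11, limma, unadjusted p = 0.00492, adjusted p = 0.658) and near 0 without TG replicate 2. After a correction of each library for GC content, given with the Dlgap3 values, it was -0.06.

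Shank2 (ENSMUSG00000037541, chr7:144001928-144424494, plus strand) is the paralog found at many forebrain and cerebellar synapses. Its normalized reads numbered 6540, 5261 and 5843 in TG and 6051, 6142 and 5592 in WT, replicates 1 to 3. Here too TG replicate 1 was the highest library and TG replicate 2 the lowest. The means of 5882 ± 640 and 5928 ± 295 (SD, n = 3) gave a log2 fold change of -0.02 (SE 0.07, limma adjusted p = 0.991), which was -0.10 without TG replicate 1 and 0.06 without TG replicate 2. The 95% interval ran from -11.7% to 10.8%, so a fall or a rise of Shank2 within those limits is not excluded with 3 mice per group. The interval is not a limit of detection, since a call also took the adjustment over all 17605 genes tested.

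Taken as a sum per kb of exon, Shank1 and Shank2 amounted to 1923, 1382 and 1631 normalized reads in TG and 1806, 1807 and 1638 in WT, replicates 1 to 3. The means of 1645 ± 271 and 1750 ± 97.3 (SD, n = 3) did not pass an exact two-sided permutation test (p = 0.6, where 0.1 is the smallest p that 3 against 3 libraries allow). The sum differed by -6.01%, a log2 ratio of -0.09, which became 0.02 without TG replicate 2. The sum of all 3 genes was 4701 ± 411 reads per kb in TG and 3223 ± 81.2 in WT, 1.46 times the WT level.

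Within each library, Shank3 took 62.8%, 69.0% and 63.5% of the summed Shank level in TG and 45.4%, 43.8% and 47.9% in WT, replicates 1 to 3. The groups did not overlap, and the share was 19.4 percentage points higher in TG (65.1 ± 3.41% and 45.7 ± 2.11%, SD, n = 3, exact two-sided permutation p = 0.1, the smallest possible). Shank1 held 23.3 ± 2.87% in TG and 37.2 ± 1.51% in WT, and Shank2 held 11.6 ± 0.611% and 17.1 ± 0.630%. These 2 shares have to fall when the Shank3 level rises, while the levels of Shank1 and Shank2 themselves overlapped between the groups.

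**Figure D2:**
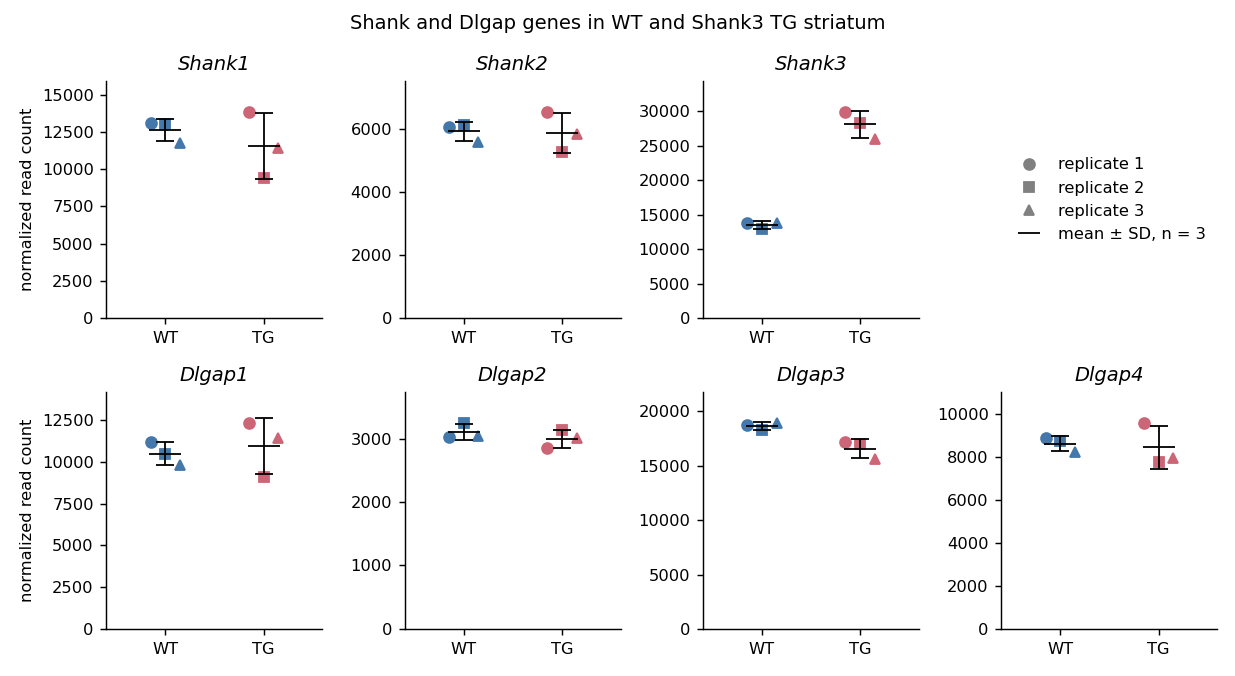
Normalized read counts of the 7 genes in WT and TG libraries, with 1 panel per gene, symbols for replicates 1 to 3 and lines for the mean ± SD (n = 3). Shank3 is separated upwards and Dlgap3 slightly downwards in TG, while the other 5 genes overlap.

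Among the SAPAP genes, Dlgap3 was the only one without overlap between the groups. SAPAP3 (ENSMUSG00000042388, chr4:127169204-127237022, plus strand) is the SAPAP most enriched in striatum. It had a normalized count of 17163, 16982 and 15621 in TG and 18717, 18275 and 18970 in WT, replicates 1 to 3. All 3 TG libraries were below all 3 WT libraries, with means of 16589 ± 843 and 18654 ± 352 (SD, n = 3), a difference of -11.1%. The log2 fold change was -0.17 (SE 0.05, 95% interval -0.28 to -0.06, limma, unadjusted p = 0.00725, adjusted p = 0.971). Its unadjusted p ranked 76 among all genes, and it was not called after adjustment. Of all genes tested, 4.31% had an unadjusted p under 0.05 and 10.1% showed no overlap between the groups. Among the members each of these counts was 2, namely Shank3 and Dlgap3. Without Shank3, the gene that the transgene carries, each count was 1 of 6, namely Dlgap3.

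The Dlgap3 difference was smaller after a correction for GC content. The longest Dlgap3 transcript has the highest GC content of the 7 members, 63.9%, against 50.9% to 62.4% in the others. Genes of at least 60% GC (768 genes) had median deviations from the mean over libraries of 0.03, -0.08 and -0.07 on the log2 scale in TG replicates 1, 2 and 3 and of 0.06, 0.02 and 0.04 in WT replicates 1, 2 and 3. After each library was corrected for this trend, Dlgap3 counted 16745, 18104 and 16652 in TG and 17844, 17972 and 18250 in WT, so that TG replicate 2 lay within the WT range. The log2 fold change was then -0.07 (95% interval -0.18 to 0.04, unadjusted p = 0.170). With each library left out in turn it stayed between -0.20 and -0.13 without the GC correction. The smallest adjusted p over all alternatives was 0.0962, from DESeq2 run with a fold change prior and an empirical null, a test that called 15 genes in all (0.0852%) and of the members only Shank3. The largest was 1.

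The other SAPAP genes overlapped between TG and WT. Dlgap1 (SAPAP1, ENSMUSG00000003279, chr17:69969073-70821413, plus strand) counted 12358, 9097 and 11419 in TG and 11190, 10470 and 9811 in WT, replicates 1 to 3. TG replicates 1 and 3 were above all WT libraries and TG replicate 2 below them, and the log2 fold change was 0.05 (SE 0.10, limma adjusted p = 0.983). It was 0.18 without TG replicate 2 and -0.04 without TG replicate 1 (adjusted p = 0.776 and 0.933). The 95% interval ran from -10.7% to 20.5%.

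Dlgap2 (SAPAP2, ENSMUSG00000047495, chr8:14095865-14847680, plus strand) counted 2852, 3137 and 3013 in TG and 3019, 3252 and 3045 in WT, replicates 1 to 3. It varied little among the mice, with means of 3001 ± 143 and 3105 ± 127 (SD, n = 3) and a log2 fold change of -0.05 (SE 0.05, limma adjusted p = 0.971). Dlgap4 (SAPAP4, ENSMUSG00000061689, chr2:156613705-156764363, plus strand) counted 9578, 7737 and 7958 in TG and 8876, 8712 and 8208 in WT. TG replicate 1 was the highest library and the other TG libraries were the lowest, with a log2 fold change of -0.04 (SE 0.08, limma adjusted p = 0.984) that was -0.13 without TG replicate 1 (unadjusted p = 0.0268, adjusted p = 0.658) and 0.02 without TG replicate 2. The 95% intervals were -10.9% to 4.77% for Dlgap2 and -13.0% to 9.52% for Dlgap4.

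The summed Dlgap level was 6084, 5691 and 5525 normalized reads per kb of exon in TG and 6307, 6187 and 6211 in WT, replicates 1 to 3. All TG libraries were below the WT libraries, and the mean differed by -7.51% (5767 ± 287 and 6235 ± 63.3, SD, n = 3, exact two-sided permutation p = 0.1, the smallest possible). Most of this difference lay in Dlgap3, with means of 3669 in TG and 4126 in WT. The TG and WT means were 613 and 586 for Dlgap1, 488 and 505 for Dlgap2, and 997 and 1017 for Dlgap4. The result for the sum depended on the length used, since p was 0.3 per kb of the longest transcript and 0.4 without division by length. The log2 ratio was -0.11, and -0.04 after the GC correction, where the exact permutation p was again 0.1. Dlgap3 made up 63.6 ± 2.05% of the family in TG and 66.2 ± 1.20% in WT per kb of exon (exact permutation p = 0.3). This share also depended on the length used. Per kb of the longest transcript it was 50.1 ± 2.60% in TG and 53.1 ± 1.41% in WT (exact permutation p = 0.3). The ratio of the summed Shank to the summed Dlgap level was 0.851, 0.784 and 0.808 in TG and 0.525, 0.519 and 0.507 in WT. No TG library overlapped with WT in this ratio, which was 1.58 times the WT value in TG (exact permutation p = 0.1, the smallest possible). The summed Shank level includes Shank3, so the ratio has to rise with the Shank3 level when the other genes stay the same.

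**Figure D3:**
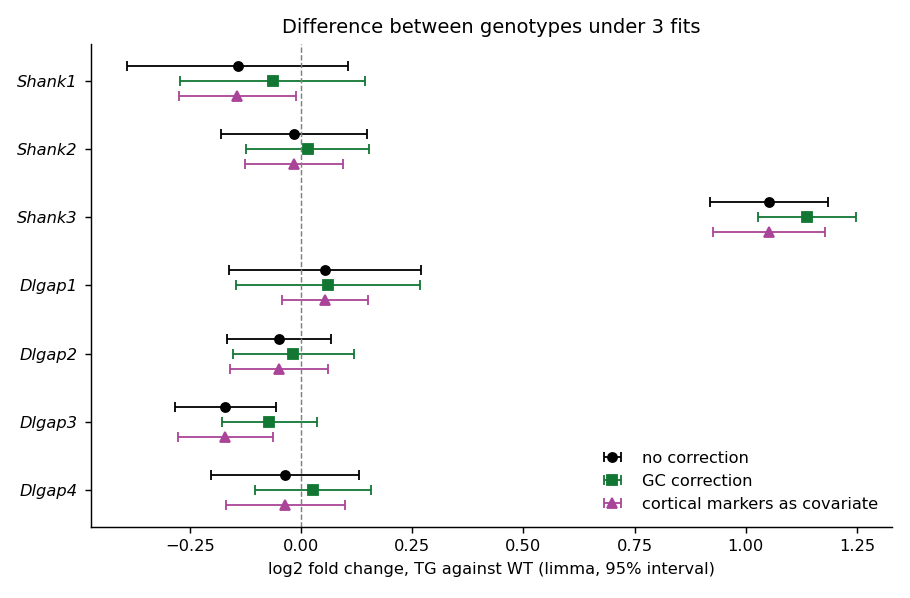
Log2 fold changes of TG against WT with 95% intervals (limma) for the 7 genes, without correction (circles), after the GC correction (squares) and with summed cortical markers as a covariate (triangles). The interval of Shank3 lies above 0 in all 3 fits, and that of Dlgap3 lies below 0 except after the GC correction.

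Besides Shank3, 4 of the 6 genes, namely Shank1, Shank2, Dlgap1 and Dlgap4, had their highest value in TG replicate 1. Of the TG libraries, all 4 were lowest in TG replicate 2, at 0.744, 0.888, 0.867 and 0.900 times the WT mean. Markers of cortical excitatory neurons (Slc17a7, Neurod6, Tbr1, Neurod2 and Neurod1) were, as a sum, likewise lowest in TG replicate 2, with a summed count of 35978, 25013 and 35279 in TG and 33733, 32182 and 29219 in WT, replicates 1 to 3. TG replicate 3 did not follow for 3 of the genes, since its cortical sum was above every WT library while Shank1, Shank2 and Dlgap4 were at 0.907, 0.986 and 0.926 times the WT mean. None of the 5 cortical markers was at 0 in any library. The medium spiny neuron markers ran the other way in TG, with sums of 121107, 169974 and 142593 in replicates 1, 2 and 3, and 8 of the 9 were lower in the TG mean, none with an unadjusted limma p under 0.05.

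With the summed cortical markers as a covariate, the SE of the log2 fold change was 0.06 in place of 0.11 for Shank1, 0.05 in place of 0.07 for Shank2, 0.04 in place of 0.10 for Dlgap1 and 0.06 in place of 0.08 for Dlgap4. For Shank1 the fold change was then -0.14 (SE 0.06, unadjusted p = 0.0363, adjusted p = 0.901) and for Dlgap3 -0.17 (SE 0.05, unadjusted p = 0.00473, adjusted p = 0.899). Shank3 remained the only member called, at 1.05. With the summed choroid plexus markers as a covariate instead, Shank3 was at 0.97 and Dlgap3 at -0.22 (unadjusted p = 0.00302, adjusted p = 0.780). In that fit Shank1 was at -0.28 (95% interval -0.54 to -0.01, unadjusted p = 0.0435, adjusted p = 0.780), Dlgap4 at -0.15 (unadjusted p = 0.0578, adjusted p = 0.780), Shank2 at -0.09 and Dlgap1 at -0.02.

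**Figure D4:**
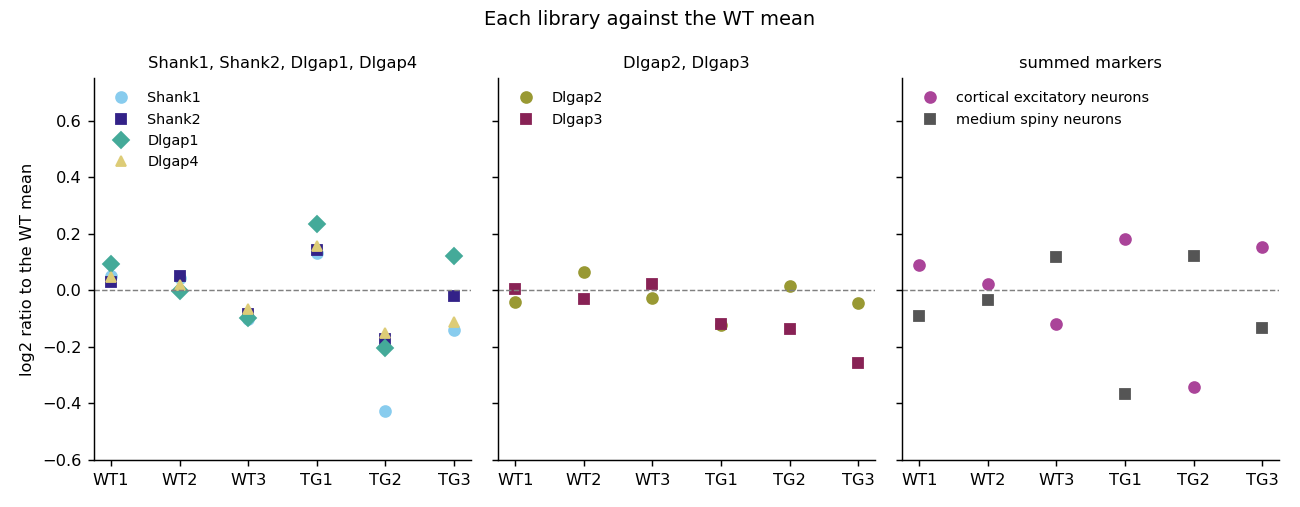
Log2 ratio of each library to the WT mean for Shank1, Shank2, Dlgap1 and Dlgap4 (left), for Dlgap2 and Dlgap3 (middle) and for summed marker genes of cortical excitatory and medium spiny neurons (right), with 1 column of points per mouse. The 4 genes on the left are highest in TG replicate 1 and lowest in TG replicate 2, Dlgap3 is low in all 3 TG libraries, and the cortical markers are also lowest in TG replicate 2.

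Over the 6 libraries, which share tissue, dissection and normalization, the log2 values of Shank1 and Shank2 had a Pearson r of 0.94, those of Shank2 and Dlgap4 one of 0.92, those of Shank1 and Dlgap4 one of 0.90 and those of Shank2 and Dlgap1 one of 0.89. It was 0.79 for Shank1 with Dlgap1 and 0.75 for Dlgap1 with Dlgap4. The other members did not share this pattern. Pairs that include Shank3, Dlgap2 or Dlgap3 ranged from -0.82 (Shank3 with Dlgap3) to 0.35 (Shank1 with Dlgap3), with -0.69 for Dlgap1 with Dlgap2. Among 6237 genes with a mean of at least 1000, the genes with patterns closest to Shank1 were Lingo1 (r = 0.997) and Wwc1 (0.985), and those closest to Shank2 were Apba1 (0.997) and Sobp (0.991). Closest to Dlgap1 were Atcay (0.994) and Mpped1 (0.994), and closest to Dlgap4 were Btbd6 (0.993) and Cbarp (0.992). Closest to Dlgap2 were the ribosomal protein genes Rps3 (0.987) and Rps9 (0.981), and closest to Dlgap3 were Sh3bgrl3 (0.989) and Acsbg1 (0.977). The closest to Shank3 were Ric3 (0.990) and Dnajb9 (0.987), whose r reflects the difference between the genotypes in these 6 libraries. The values for the closest genes are the highest of 6237 over only 6 libraries, where high values of r can also arise by chance. All values of r here are a description, with no test.

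Other genes of the same scaffold and of proteins that bind it were examined, together with Dlgap5, as a list of 19, all of which were tested. It holds the PSD-95 family (Dlg1 to Dlg4), Homer1 to Homer3, cortactin (Cttn), IRSp53 (Baiap2), Sharpin, beta-PIX (Arhgef7), alpha-fodrin (Sptan1), Abi1, densin (Lrrc7), a latrophilin (Adgrl1), dynein light chains (Dynll1 and Dynll2), Grm5 and Dlgap5. Dlgap5 carries the family name, but a place in this scaffold is not assumed for it, and its level was low (2.91 normalized reads per kb in WT). In TG, 11 were higher and 8 lower in the log2 mean, with 0 called by limma and 0 with an unadjusted p under 0.05. DESeq2, edgeR and limma-voom also called 0 of them. The median log2 fold change was 0.02 and the median size 0.05, beside 0.00 and 0.07 over all genes tested. Groups did not overlap for 2 of the 19 (Dlg1 and Abi1, both higher in TG). Over all genes tested, 4.31% had an unadjusted p under 0.05 and 10.1% did not overlap, so the count of 2 is near the background.

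The 4 most abundant partners per kb were the dynein light chain gene Dynll2 (7231 normalized reads per kb in WT), Baiap2 (3135), Sptan1 (2722) and Dlg4 (1983), which encodes PSD-95. Their log2 fold changes were 0.02, -0.03, 0.03 and -0.05. The highest was Homer1 at 0.13 (SE 0.08, limma, unadjusted p = 0.137) and the lowest Homer3 at -0.13 (SE 0.12, limma, unadjusted p = 0.319). For Dlg4, the gene between the receptors and the SAPAP layer, the 95% interval ran from -10.6% to 4.32%.

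**Figure D5:**
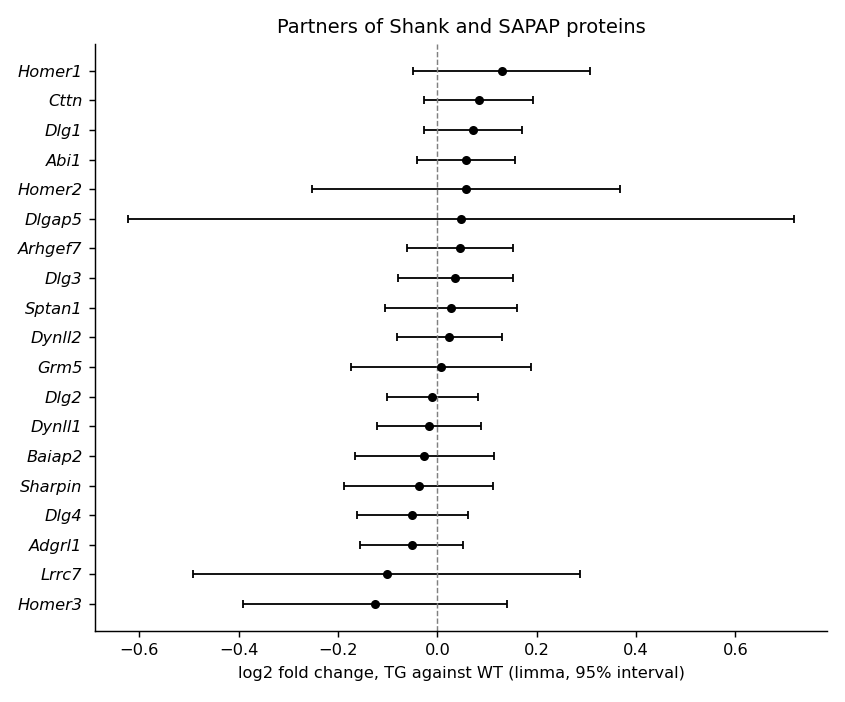
Log2 fold changes of TG against WT with 95% intervals (limma) for the 19 partner genes, in order of the fold change. All 19 intervals include 0, and the widest belongs to Dlgap5, the listed gene with the lowest level.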

How the data were processed

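Striatal RNA of 3 WT and 3 TG mice had been prepared with a TruSeq RNA v2 kit, which does not mark strand, and sequenced in pairs. Per the study's methods, the authors used Trimmomatic 0.35 for trimming, TopHat2 2.1.0 for alignment to GRCm38 and HTSeq for counting per gene. The strand setting and the annotation release are not given in the sources used here. The deposited values are a signal per gene, namely read counts scaled by DESeq2 size factors. Dividing by the smallest value above 0 recovered whole reads within 0.01 for all values, between 27689589 and 36647626 per library. Of 46078 identifiers, 45229 matched GENCODE M21.

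The main test was limma-trend (limma 3.58.1, R 4.3.3) on log2(value + 1). It covered 17605 genes whose mean reached 10, and p-values were adjusted by Benjamini-Hochberg (threshold 0.05). All p-values are two-sided. The test was also run on simulated counts, and no result given here rests on that run. Levels and shares used exact permutation tests over libraries. DESeq2 1.42.0, edgeR 4.0.16 and voom on recovered reads were alternatives, as were other scalings, filters, pseudocounts, left-out libraries, marker covariates, a block for the replicate number and loess corrections (span 0.3) for GC content or exonic length. For the empirical null, the central 75% of statistics was fitted, where the study used a package.

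The members, the partner list and the marker lists were chosen with earlier results of these data known. Named genes were the members, the partners with an unadjusted p under 0.05, the 4 most abundant and the highest and lowest fold change, genes that share exon bases with a member, and the 2 genes most like each member. The 2 partners without overlap were named after their values were seen. 1 gene of the partner list and 1 cortical marker are not reported here and were left out of every count and sum of those lists. No library was left out.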

Additional observations from a re-analysis of the deposited data

How the results depend on the processing

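Over the 9 results from fits across all genes and their 200 alternatives, 190 kept the result and 10 turned the direction, of which none passed the test. For fold changes, a kept result means the same direction and the same side of the threshold. The counts of called members and of called partners have no direction, and each kept its value in all of its 23 alternatives. For the 5 levels, shares and ratios, whose exact tests cannot reach 0.05, 59 of 60 alternatives kept the direction and 1 turned it. Shank3 was the only member called in every setting, and no partner was called in any.

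Shank2 turned to 0.0151 (log2) with the GC correction, with or without the replicate block, and to 0.0617 and 0.0103 without TG or WT replicate 2. Dlgap4 turned to 0.0263 with the GC correction, with or without the replicate block, and to 0.0228 and 0.00246 without TG replicates 2 or 3. Dlgap1 turned to -0.0186 with the choroid plexus markers as a covariate and to -0.0394 without TG replicate 1. The summed Shank1 and Shank2 level turned to 0.0218 without TG replicate 2. The causes were not tested.

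With single libraries left out, log2 fold changes ranged from -0.28 to -0.00 (Shank1), -0.10 to 0.06 (Shank2), 1.01 to 1.10 (Shank3), -0.04 to 0.18 (Dlgap1), -0.08 to -0.01 (Dlgap2), -0.20 to -0.13 (Dlgap3) and -0.13 to 0.02 (Dlgap4). Log2 ratios ranged from -0.22 to 0.02 for summed Shank1 and Shank2, from -0.15 to -0.08 for summed Dlgap and from 0.62 to 0.68 for the Shank to Dlgap ratio. The Shank3 share differed by 17.5 to 20.5 percentage points and the Dlgap3 share by -3.71 to -1.84.

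Correlations between the libraries themselves ranged from 0.9923 to 0.995. After the mean of each group was subtracted for each gene, same-numbered TG and WT libraries correlated at 0.0474, 0.0163 and 0.0928. Differently numbered ones correlated at -0.125 to 0.0771. These values alone do not decide whether the numbers mark pairs. The sample titles name no pairs, and the main test did not use any. The replicate block left the calls at 1 member and 0 partners, and gave the Shank3 share 19.4 points (exact sign-flip p = 0.25, the smallest possible) and the summed Dlgap level a log2 ratio of -0.11.

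Over all genes, 1 was called by limma, edgeR and voom, 2 without TG replicate 2 or 3, 3 with the cortical covariate, 4 at an adjusted p of 0.1, 5 without a filter, 7 with DESeq2 and 15 with its prior and empirical null. With 3 mice per group, changes of the paralogs within the intervals given are not excluded, and larger ones could also go uncalled after the adjustment over all genes. The limma p-values set the difference between the groups against a spread between mice that is estimated with information from all genes tested. The exact permutation p-values rest on rearranging the libraries between the groups.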
